A study of Mus musculus with 10 samples.

Results

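The expression of 10 genes that mark haematopoietic stem and progenitor cells was followed in mouse spleen, namely Cd34, Meis1, Hlf, Mecom, Gata2, Gfi1b, Tal1, Lmo2, Runx1 and Myb. They were taken by name, and all 10 were found among the 54532 genes of the deposited FPKM table, in which fragments are divided by gene length and library depth. The spleens came from 5 DUSP6 KO mice (Dusp6tm1Jmol, a deletion present in every cell) and 5 C57BL/6J WT mice, 8 to 12 weeks old, both lines bought from the same supplier. All 10 animals had received 100 µL of serum from arthritic KRN x NOD F1 mice by intraperitoneal injection on days 0 and 2, and spleens were taken on day 9, at the peak of KRN serum-induced arthritis (KSIA). Spleens without serum were not analysed here, so the levels below describe arthritic mice of both genotypes. Each library is 1 whole spleen of 1 mouse, named by its animal number, and in such bulk samples fewer cells of a type and less RNA per cell cannot be told apart.

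The spleen of an adult mouse, unlike that of an adult human, keeps some blood formation, and inflammation or blood loss enlarges it. The genes followed here act at different steps of that path. Meis1, Hlf and Mecom (Evi1) are transcription factors most used in long-lived stem cells, and Cd34 is a sialomucin on the surface of progenitors and also of blood vessel endothelium. Runx1 and Gata2 are factors needed for stem cells to emerge, and both are used in later lineages, Gata2 in mast cells and basophils. Tal1 (Scl) is a basic helix-loop-helix factor that binds DNA beside GATA factors in a complex bridged by Lmo2, a LIM-only protein with no DNA binding of its own. Gfi1b is a zinc finger repressor of red cell and platelet precursors, and Myb keeps progenitors dividing. Tal1, Lmo2 and Gfi1b are therefore also red cell genes, and the question put to these data was whether the 10 genes moved as one block, and whether they differed with Dusp6.

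RNA depth was 14990474 to 19822673 reads per library, recovered from FPKM and gene length. Dusp6 itself averaged 0.440 ± 0.117 FPKM (SD, n = 5) in spleens of DUSP6 KO mice against 19.4 ± 2.81 in those of WT mice, a log2 fold change of -5.19 (SE 0.16, limma adjusted p = 1.33e-07), so each library carried the genotype of its label. Xist was at most 0.0206 FPKM and Ddx3y at least 14.4 FPKM, so the libraries were male. Spleen genes were present in both groups, with the B cell gene Cd79a at 397 ± 103 FPKM (DUSP6 KO) and 467 ± 128 FPKM (WT).

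Promoter sequences were read from RefSeq (GRCm38.p6), whose table holds 13 promoters of 9 of the genes, from 250 bases before to 50 bases after each start. The 6-base GATA element, searched on both strands as AGATAA with T also allowed as its first base and G as its last, was present in promoters of 4 genes: Tal1, Gfi1b, Cd34 and Mecom. By promoter it was in 5 of the 13, and 29.8% of all 32851 promoters of that length hold it. The windows of 80 bases around these elements are shown because 2 of the 4 genes, Tal1 and Gfi1b, followed the red cell genes across mice and the other 2 did not. Capitals mark the element, each line is read 5′ to 3′ on the strand of its gene, and capitals that end in TCT are elements lying on the opposite strand.
Tal1, chr4:115056184-115056263, + strand, element beginning 205 bases before the start: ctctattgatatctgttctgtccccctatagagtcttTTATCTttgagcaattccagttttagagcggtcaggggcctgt
Gfi1b, chr2:28622060-28622139, - strand, element beginning 120 bases before the start: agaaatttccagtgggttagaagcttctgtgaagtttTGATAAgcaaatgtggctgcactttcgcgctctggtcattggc
Cd34, chr1:194938571-194938650, + strand, element beginning 226 bases before the start: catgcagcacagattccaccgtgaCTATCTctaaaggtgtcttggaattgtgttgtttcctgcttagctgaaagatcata
Mecom, chr3:30509760-30509839, - strand, element beginning 31 bases before the start: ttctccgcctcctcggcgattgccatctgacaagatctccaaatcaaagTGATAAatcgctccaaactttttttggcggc
Mecom, chr3:30013205-30013284, - strand, element beginning 27 bases before the start: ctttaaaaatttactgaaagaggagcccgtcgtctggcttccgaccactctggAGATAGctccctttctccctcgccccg
Among the 9 genes with a promoter, the presence of these letters did not separate those that followed the red cell genes from those that did not. Lmo2, which also followed the red cell genes, has no promoter in the set. Myb, another such gene, holds no GATA element in its promoter, and a further Tal1 promoter lacks it. A second element, CCNCNCCC on either strand, as in CACC boxes, was in 11 of the 13 promoters (of 8 genes), and 49.5% of all promoters hold it. Matches of this kind describe the sequence and do not show binding.

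Levels of the 10 genes spanned more than 2 orders of magnitude (means over 10 libraries, per length). Lmo2 was highest at 85.8 FPKM, followed by Tal1 at 46.6 and Gfi1b at 27.4 FPKM. Myb (5.61), Runx1 (4.98), Cd34 (2.86) and Gata2 (2.56 FPKM) formed a middle range, and Meis1 (0.917), Hlf (0.507) and Mecom (0.338 FPKM) were lowest. In that order Lmo2 exceeded Tal1, Tal1 exceeded Gfi1b and Gfi1b exceeded Myb in 10 of 10 libraries, although the ranges overlapped between mice. Myb exceeded Runx1 in 6, Cd34 exceeded Gata2 in 7 and Hlf exceeded Mecom in 8 of 10 libraries. The order of these neighbours thus varied between mice, and their difference was not tested. The ranges of Runx1 and Cd34, of Gata2 and Meis1, and of Meis1 and Hlf did not overlap.

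**Figure D1:**
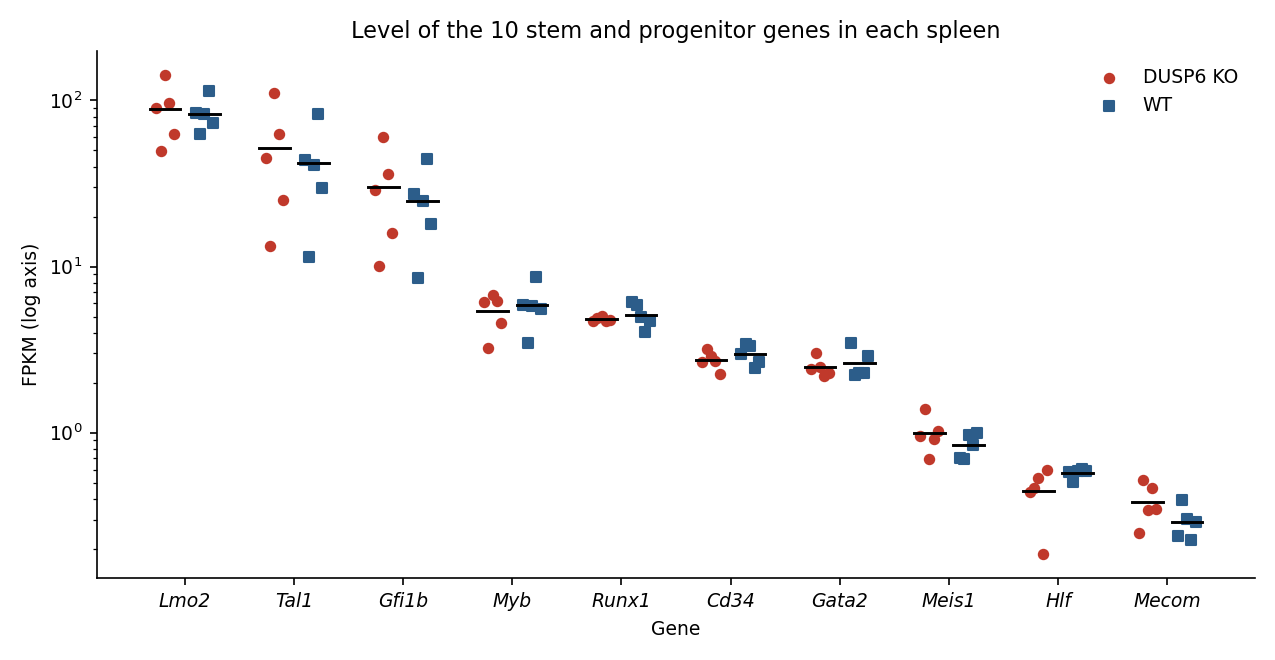
FPKM (log axis) of the 10 genes in each of the 5 DUSP6 KO (circles) and 5 WT (squares) spleens, with a line at each group mean. Tal1 and Gfi1b spread widely in both genotypes (11.5 to 111.2 and 8.53 to 60.0 FPKM), whereas Runx1, Cd34 and Gata2 stay within 1.58-fold, and the groups overlap for all 10 genes.

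Tal1 (ENSMUSG00000028717, GRCm38 chr4:115056426-115071755, + strand) varied the most. In DUSP6 KO mice 26, 21, 73, 01 and 03 it was at 44.7, 13.3, 111.2, 62.6 and 25.3 FPKM. In WT mice 65, 67, 73, 77 and 83 it was at 43.6, 11.5, 41.1, 82.9 and 29.9 FPKM. DUSP6 KO 73 was highest and WT 67 lowest, 9.70-fold apart, and the spread was 8.36-fold within DUSP6 KO and 7.24-fold within WT mice, so the groups overlapped throughout. These values rest on 958 to 7134 reads per library.

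Gfi1b (ENSMUSG00000026815, chr2:28609450-28621982, - strand) showed the same order of mice. It was at 28.8, 10.1, 60.0, 36.2 and 15.9 FPKM in the DUSP6 KO mice and at 27.5, 8.53, 24.7, 44.6 and 18.02 FPKM in the WT mice, in the sequence of animals given for Tal1. The 10 mice ranked identically for Tal1 and Gfi1b (Spearman's rho 1), and the ratio of Tal1 to Gfi1b FPKM stayed between 1.32 and 1.86, averaging 1.61 ± 0.20 (SD, n = 5) among DUSP6 KO and 1.62 ± 0.19 among WT mice. Even so, the ratio was lowest in DUSP6 KO 21 and WT 67, where both genes were lowest, and highest in DUSP6 KO 73 and WT 77, where both were highest.

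Lmo2 (ENSMUSG00000032698, chr2:103957986-103981878, + strand) followed with a smaller swing of 2.88-fold. It was at 89.8, 49.6, 143, 96.1 and 63.0 FPKM in DUSP6 KO mice and at 83.8, 62.8, 83.1, 114 and 72.7 FPKM in WT mice. Myb (ENSMUSG00000019982, chr10:21124935-21160984, - strand) swung 2.67-fold, at 6.16, 3.23, 6.72, 6.18 and 4.57 FPKM in DUSP6 KO mice and 5.85, 3.47, 5.78, 8.63 and 5.52 FPKM in WT mice. For both genes DUSP6 KO 21 was lowest, WT 67 was second lowest, and the groups overlapped. Myb differed from the rest in its top, which was WT 77 and not DUSP6 KO 73.

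The spread of these 4 genes was large for their level. Among genes with a mean within 2-fold of its own, the within-group SD of log2(FPKM + 0.1) placed Tal1 (1.11) at percentile 98.04, Gfi1b (0.94) at 97.99, Myb (0.44) at 86.5 and Lmo2 (0.47) at 79.7. The other 6 genes had SDs of 0.18 to 0.36, at percentiles 4.65 to 32.6. Genotype accounted for 1.09% of the variance of Tal1, 1.68% of Gfi1b, 0.04% of Lmo2 and 1.95% of Myb across the 10 mice. Among the other 6 genes its share ran from 3.12% (Gata2) to 25.7% (Mecom), with Hlf at 24.2%. With so few mice a genotype without effect also takes some share. The unadjusted limma p was 0.24 for Mecom and 0.18 for Hlf.

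The red cell genes of the same spleens were compared with each member across mice. Over 19 measured erythroid genes (among them Gata1, Klf1, Epor, Alas2 and Slc4a1, none of them one of the 10), the mean of log2(FPKM + 0.1) ran from 4.74 in DUSP6 KO 21 and 4.79 in WT 67 to 7.34 in WT 77 and 7.87 in DUSP6 KO 73. Both genotypes held mice at both ends. Haemoglobin genes took 1.74 to 7.56% of the reads.

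Tal1, Gfi1b, Lmo2 and Myb followed this erythroid mean closely. Pearson's r was 0.996 for Tal1, 0.992 for Gfi1b, 0.960 for Lmo2 and 0.931 for Myb (n = 10 mice, Spearman's rho 0.976, 0.976, 0.988 and 0.976). The two-sided permutation p-values were 2e-05, 2e-05, 4e-05 and 0.00033 (0.0003, 0.0003, 0.0004 and 0.0025 after Benjamini-Hochberg adjustment over 60 relations between 10 genes and 6 gene lists). Without the 2 mice farthest from the median of the erythroid mean, r was 0.994, 0.991, 0.991 and 0.789. After subtraction of the group means r was 0.996, 0.993, 0.963 and 0.958, so the relations were also present within genotypes.

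The genes differed in how steeply they went with the red cell genes. For each unit of log2 in the erythroid mean, Tal1 went up by 1.04 (SE 0.034) and Gfi1b by 0.88 (SE 0.038) on the log2 scale, nearly in proportion. Lmo2 went up by 0.42 (SE 0.043) and Myb by 0.39 (SE 0.054). A line on the erythroid mean accounted for 99.2% of the variance of Tal1, 98.5% of Gfi1b, 92.2% of Lmo2 and 86.7% of Myb. For Cd34, Meis1, Hlf, Mecom, Gata2 and Runx1 the slopes were -0.15 to -0.04 and the share was 0.925 to 23.7%.

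**Figure D2:**
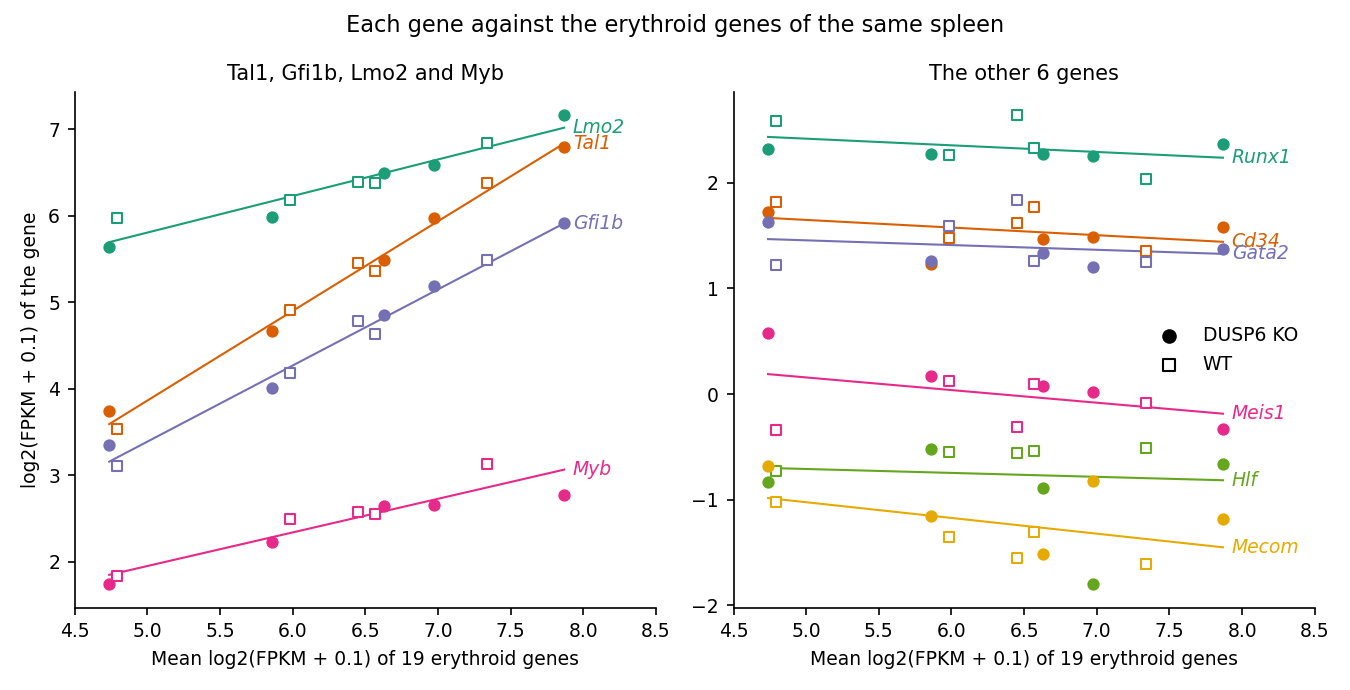
log2(FPKM + 0.1) of each gene (vertical axis) against the mean log2(FPKM + 0.1) of 19 erythroid genes in the same spleen (horizontal axis), with filled circles for DUSP6 KO, open squares for WT and a least-squares line per gene. Tal1, Gfi1b, Lmo2 and Myb climb from the mice at 4.74 to the mouse at 7.87 in both genotypes, and the lines of the other 6 genes are nearly flat.

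The 10 genes thus did not vary as one block. Of 45 pairs of members, 6 passed a Benjamini-Hochberg adjusted permutation p of 0.05, and these were the 6 pairs among Tal1, Gfi1b, Lmo2 and Myb. Their r ranged from 0.879 (Lmo2 with Myb, adjusted permutation p = 0.0075) to 0.998 (Gfi1b with Tal1, adjusted permutation p = 0.00045, raw p = 1e-05, the smallest that the resamples can give). No pair among Meis1, Hlf, Mecom, Gata2, Runx1 and Cd34 passed. Lmo2 with Myb was at r = 0.816 (adjusted permutation p = 0.058) without DUSP6 KO 21.

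Against 6 gene lists, 13 of 60 relations passed, 9 of them positive and 4 negative. Apart from the erythroid genes, Tal1, Gfi1b, Lmo2 and Myb went with 12 proliferation genes such as Mki67 and Plk1 (r = 0.995, 0.994, 0.958 and 0.907). The erythroid and the proliferation means were themselves at r = 0.992 over these mice, so the 2 lists cannot be told apart as partners of the 4 genes. With 17 endothelial genes the same 4 were negative, at r = -0.83, -0.81, -0.79 and -0.94 in that order (adjusted permutation p = 0.022, 0.022, 0.032 and 0.0021). Without the 2 mice farthest from the median of the endothelial mean, these were -0.50, -0.48, -0.55 and -0.79. Those of Tal1, Gfi1b and Lmo2 were thus weaker over the remaining mice, although a narrower range by itself tends to lower r. The erythroid and endothelial means were at r = -0.84, in a unit that is a share of the library. The part of cell proportions in these relations was not tested.

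Mecom was the only other gene with a relation that passed. It went with the endothelial genes (r = 0.814, rho = 0.794, adjusted permutation p = 0.022). This r was 0.680 without the 2 mice farthest from the median of the endothelial mean. It was 0.690 without DUSP6 KO 21 (adjusted permutation p = 0.15) and 0.765 without WT 77 (adjusted permutation p = 0.078). By Spearman's rho 14 relations passed, the further one being Mecom with neutrophil progenitor genes (rho = -0.79, adjusted permutation p = 0.045, r = -0.72 with adjusted permutation p = 0.073). Cd34, itself an endothelial gene, was at r = 0.53 with the endothelial genes (adjusted permutation p = 0.31).

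**Figure D3:**
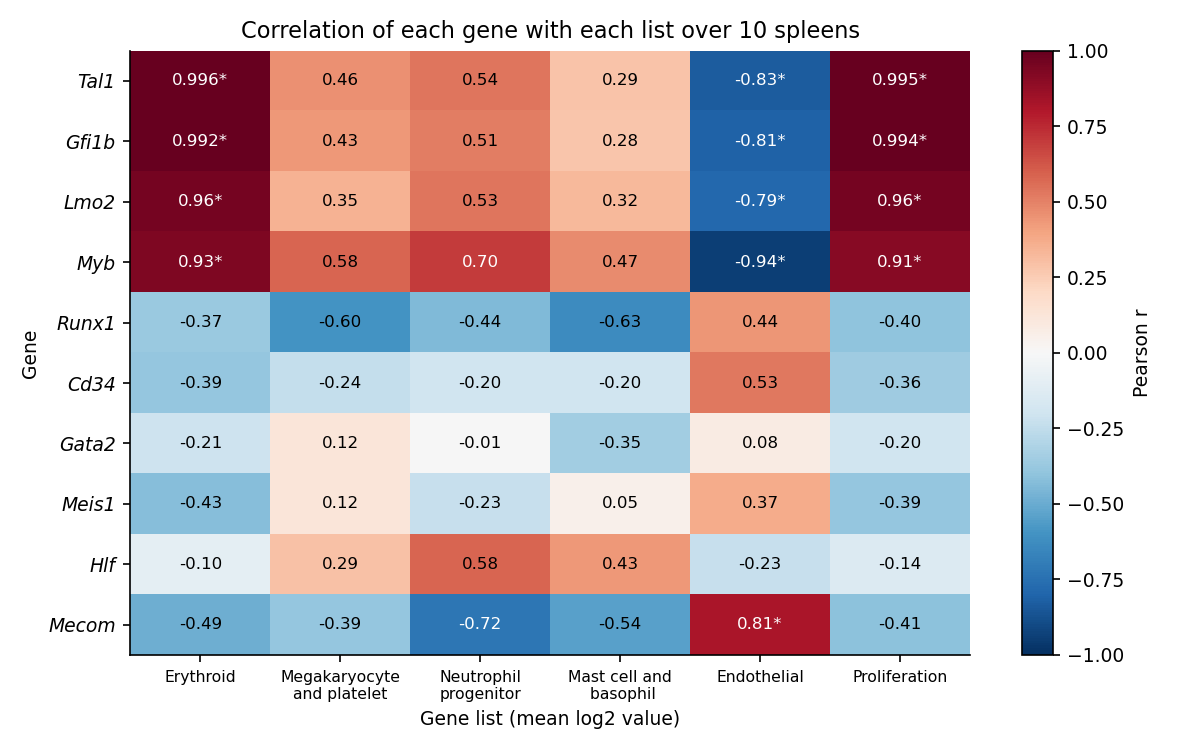
Pearson's r over 10 spleens between log2(FPKM + 0.1) of each gene (rows) and the mean log2 value of each of 6 gene lists (columns), coloured from blue (negative) to red (positive), with an asterisk where the Benjamini-Hochberg adjusted permutation p is 0.05 or less. The 13 asterisks fall in the erythroid, endothelial and proliferation columns of Tal1, Gfi1b, Lmo2 and Myb and in the endothelial column of Mecom.

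DUSP6 KO and WT spleens were then compared gene by gene with limma on log2(FPKM + 0.1). None of the 10 genes passed an adjusted p of 0.05, where 0.0704% of the 21296 genes tested did (0.0376% higher and 0.0329% lower in DUSP6 KO). None passed an unadjusted p of 0.05 either, where 5.66% of genes did, and none had groups that did not overlap (1.11% of genes). Limma voom on the recovered reads also called none. The paper, with DESeq2 on the same spleens, reports far more genes as different between the genotypes. The absence of a call in limma is therefore not a finding that the 10 genes were unchanged. Of the 10 log2 fold changes 5 were positive and 5 negative, with a median of -0.03 against -0.0046 over all genes tested.

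The 4 genes that followed the red cell lineage gave wide intervals. The log2 fold change (DUSP6 KO minus WT, limma) was 0.21 for Tal1 (SE 0.61, 95% interval -1.14 to 1.56) and 0.22 for Gfi1b (SE 0.52, -0.93 to 1.37), so changes of up to 2.95-fold in Tal1 and 2.59-fold in Gfi1b lie within the interval. Lmo2 was at 0.02 (SE 0.26, -0.57 to 0.60) and Myb at -0.11 (SE 0.25, -0.67 to 0.45). Adjusted p-values of the 10 genes were 0.963 to 0.998.

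A fit with the erythroid mean of each mouse as a covariate, chosen after the relations above were seen, gave far narrower intervals for the same genes. Tal1 was then at 0.01 (SE 0.07, 95% interval -0.14 to 0.17), an SE 8.90 times smaller, and Gfi1b at 0.06 (SE 0.07, -0.11 to 0.22). Lmo2 was at -0.06 (SE 0.08, -0.24 to 0.12), with the sign turned. Myb was at -0.19 (SE 0.09, -0.39 to 0.02, limma adjusted p = 0.63), the lowest adjusted p of a member under any setting tried, and it did not pass. This fit compares mice at equal erythroid level and says nothing of whether Dusp6 alters that level, for which the 2 groups overlapped (6.41 ± 1.18 against 6.23 ± 0.94 in WT mice, SD, n = 5).

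**Figure D4:**
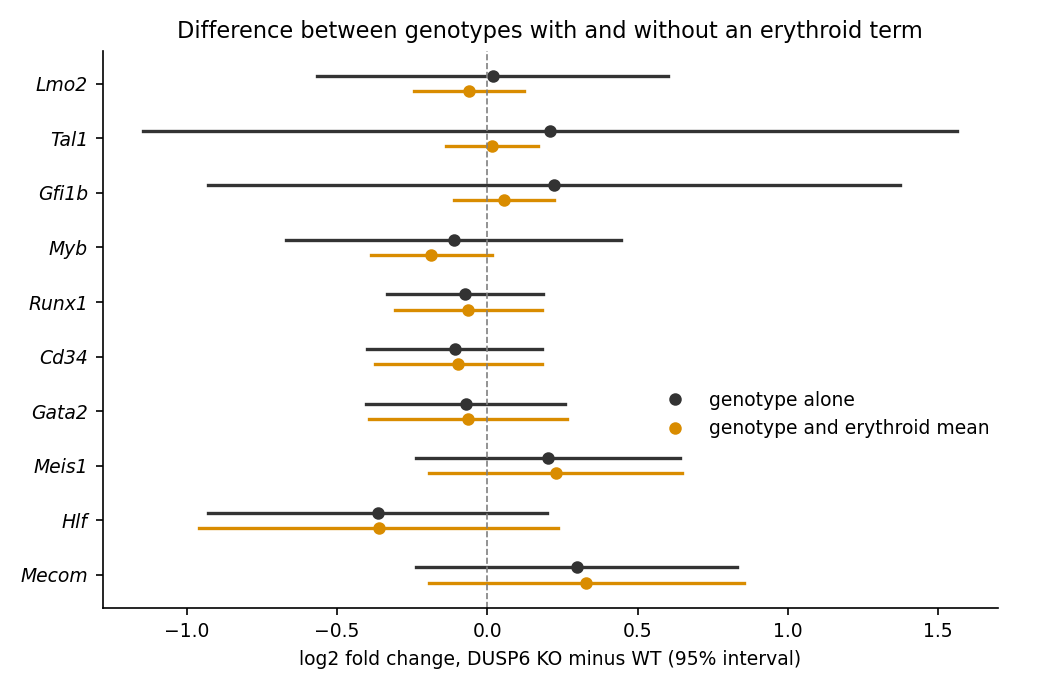
log2 fold change (DUSP6 KO minus WT) of the 10 genes with 95% intervals from limma, in black with genotype alone and in orange with the erythroid mean as a covariate. All intervals include 0, and those of Tal1 (SE 0.61 against 0.07), Gfi1b, Lmo2 and Myb shrink with the covariate while those of the other 6 genes hardly change.

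The 6 remaining genes had lower mean levels and lower within-group SDs on the log2 scale than Tal1, Gfi1b, Lmo2 and Myb. By the ratio of highest to lowest FPKM, not all of them were steadier. Hlf spread 3.23-fold, more than Lmo2 (2.88-fold) and Myb (2.67-fold), while Mecom spread 2.29-fold and Meis1 2.01-fold. Runx1 (ENSMUSG00000022952, chr16:92601466-92826149, - strand) was at 4.73, 4.89, 5.07, 4.67 and 4.74 FPKM in DUSP6 KO mice 26, 21, 73, 01 and 03 and at 6.13, 5.89, 4.94, 4.02 and 4.71 FPKM in WT mice 65, 67, 73, 77 and 83. The DUSP6 KO mice lay within 1.09-fold of each other and inside the WT range, and the log2 fold change was -0.07 (SE 0.12, 95% interval -0.33 to 0.18). Cd34 (ENSMUSG00000016494, chr1:194938819-194961279, + strand) was at 2.67, 3.21, 2.90, 2.70 and 2.24 FPKM in DUSP6 KO mice and at 2.97, 3.43, 3.32, 2.46 and 2.68 FPKM in WT mice. These groups overlapped too, with a log2 fold change of -0.11 (SE 0.13, -0.40 to 0.18).

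Gata2 (ENSMUSG00000015053, chr6:88193891-88207032, + strand) was at 2.43, 3.001, 2.49, 2.20 and 2.29 FPKM in DUSP6 KO mice and at 3.47, 2.23, 2.30, 2.28 and 2.91 FPKM in WT mice, highest in WT 65 and otherwise intermixed (log2 fold change -0.07, SE 0.15, 95% interval -0.40 to 0.26). Gata1, the GATA factor that replaces Gata2 as red cells mature, was set beside it with its values already known. The ratio of Gata1 to Gata2 FPKM ran from 4.37 in DUSP6 KO 21 to 33.5 in DUSP6 KO 73, and averaged 18.3 ± 11.3 (SD, n = 5) among DUSP6 KO and 14.3 ± 8.58 among WT mice. Nearly all of that range came from Gata1, at 13.1 to 83.4 FPKM, while Gata2 stayed within 2.20 to 3.47 FPKM.

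Meis1 (ENSMUSG00000020160, chr11:18879817-19018985, - strand) was at 0.952, 1.39, 0.693, 0.912 and 1.02 FPKM in DUSP6 KO mice and at 0.705, 0.691, 0.969, 0.845 and 0.991 FPKM in WT mice. It was highest in DUSP6 KO 21, the mouse with the lowest erythroid mean, and lowest in WT 67, the next mouse by that measure (log2 fold change 0.20, SE 0.20, 95% interval -0.24 to 0.64). Mecom (ENSMUSG00000027684, chr3:29951296-30548008, - strand) was at 0.2501, 0.522, 0.341, 0.464 and 0.349 FPKM in DUSP6 KO mice and at 0.240, 0.392, 0.303, 0.227 and 0.292 FPKM in WT mice. Of the 5 DUSP6 KO values, 4 exceeded 4 of the WT values, and the groups overlapped (log2 fold change 0.30, SE 0.24, -0.24 to 0.83, two-sided exact permutation p = 0.151).

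Hlf (ENSMUSG00000003949, chr11:90336536-90390895, - strand) came nearest to a difference. It was at 0.441, 0.462, 0.531, 0.187 and 0.596 FPKM in DUSP6 KO mice and at 0.578, 0.502, 0.590, 0.603 and 0.585 FPKM in WT mice. Most DUSP6 KO values lay below most WT values, with DUSP6 KO 01 lowest on 27 reads and DUSP6 KO 73 and 03 inside the WT range. The log2 fold change was -0.36 (SE 0.26, 95% interval -0.93 to 0.20, limma adjusted p = 0.963, two-sided exact permutation p = 0.0794, where 0.00794 is the smallest that 5 against 5 mice allow), and it was -0.15 without DUSP6 KO 01. Counts of 27 to 70 reads for Hlf and 47 to 126 for Mecom limit what can be seen for both.

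Some counts may hold reads of other genes, since it is not stated whether counting used the strand. Lmo2, Cd34, Runx1 and Myb each overlap 1 gene on the opposite strand, and Meis1 overlaps 5 genes and Mecom 7, some on the same strand. These overlaps are of whole gene spans, introns included. Whether they reach the exons that are counted was not tested. Tal1, Gfi1b, Gata2 and Hlf overlap no other annotated gene.

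Companion genes were drawn from 12 lists of other stem cell genes, partner proteins, lineages and niche signals. Of 159 genes, 148 averaged 0.1 FPKM or more, none passed the adjusted threshold in limma, and at an unadjusted p under 0.05 there were 8 higher and 12 lower in DUSP6 KO mice (2.62% and 3.03% of all genes). The paper, which tested the same spleens with DESeq2, reports Mcpt4 and Marco as higher and Prss34 as lower in DUSP6 KO mice. The absence of calls in limma is therefore not a finding that these genes were unchanged. Of 20 other stem and progenitor genes 18 were measured. Of their log2 fold changes 13 were negative and 5 positive (median -0.06). Their mean log2(FPKM + 0.1) was 2.36 ± 0.15 in DUSP6 KO mice (SD, n = 5, range 2.23 to 2.61). In WT mice it was 2.50 ± 0.04 (range 2.47 to 2.57), and this difference was not tested. At an unadjusted p under 0.05, 2 genes were lower. They were Prom1, which encodes the membrane protein CD133 (0.343 ± 0.293 against 0.731 ± 0.386 FPKM, limma adjusted p = 0.83), and Bmi1, a Polycomb protein of self-renewal (13.9 ± 1.04 against 15.8 ± 1.34 FPKM, limma adjusted p = 0.88). Ly6a, the stem cell antigen Sca-1 and also an interferon-induced gene of lymphocytes, was the most abundant at 112 ± 21.1 and 132 ± 23.0 FPKM. Hoxa9 and Hoxb5, factors of stem cells, were under the filter, with at most 16 and 17 reads in a library.

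Kit, the stem cell factor receptor of early progenitors and mast cells, was named with its values known. It was at 5.07 to 6.58 FPKM in the 10 mice, a spread of 1.30-fold against 9.70-fold for Tal1. The median within-group SD on the log2 scale was 0.24 for the other stem and progenitor genes and 0.15 for 17 partners of the member proteins, against 1.11 for the erythroid and 0.83 for the proliferation genes.

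Among the 17 partner genes the median log2 fold change was 0.05 and 1 gene was lower at an unadjusted p under 0.05. That gene was Cbfa2t3 (Eto2), a corepressor in the Tal1 complex, at 8.52 ± 0.833 against 10.1 ± 1.03 FPKM in WT spleens (log2 fold change -0.24, SE 0.099, limma adjusted p = 0.83). Zfpm1 (Fog1), the cofactor of Gata1, was the most abundant partner at 92.0 ± 54.6 and 73.9 ± 33.9 FPKM and ran from 29.4 to 173 FPKM. Ldb1, which joins Lmo2 to form loops between DNA sites, stayed at 42.7 to 51.9 FPKM, and Lyl1, the nearest relative of Tal1, at 42.03 to 64.9 FPKM. Ldb1 and Lyl1 were named with their values known.

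In the red cell and proliferation lists most signs were positive, without a gene that passed. Of 19 erythroid genes 18 had a positive log2 fold change (median 0.18, 0 at an unadjusted p under 0.05), and of 12 proliferation genes all were positive (median 0.23, 0 likewise). These genes vary together across mice, so their shared sign is not so many independent observations. The medians turned negative without DUSP6 KO 73 (-0.13 and -0.09) or without WT 67 (-0.16 and -0.04), and they were 0.62 and 0.52 without DUSP6 KO 21. Car2, the most abundant erythroid gene, was at 636 ± 446 and 537 ± 306 FPKM, and Epor, the erythropoietin receptor, had the lowest p of the list at 40.5 ± 24.1 and 29.6 ± 13.5 FPKM (limma adjusted p = 0.99). Mki67, the most abundant proliferation gene, was at 95.3 ± 63.6 and 78.0 ± 44.6 FPKM, and Plk1, a mitotic kinase, at 31.9 ± 17.2 and 25.4 ± 12.1 FPKM.

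In the lists of platelet and neutrophil lineages most signs were negative. Of 15 measured megakaryocyte and platelet genes 14 had a negative log2 fold change (median -0.34), and 2 passed an unadjusted p of 0.05: the platelet chemokine Pf4 (71.2 ± 11.96 against 104 ± 28.6 FPKM, limma adjusted p = 0.77) and the integrin Itga2b (10.2 ± 1.91 against 14.5 ± 3.79 FPKM). Ppbp was the most abundant of them at 136 ± 21.7 and 185 ± 63.2 FPKM. Of 10 neutrophil progenitor genes 9 were negative (median -0.99) and 3 passed the unadjusted threshold, namely Elane, a granule protease (26.4 ± 9.65 against 70.4 ± 59.1 FPKM), Ms4a3 (2.44 ± 1.11 against 5.77 ± 4.37 FPKM) and Cebpe (2.78 ± 1.70 against 7.32 ± 6.09 FPKM). The means of the 2 lists were at r = 0.85 over the 10 mice, so these shared signs are not so many independent observations. WT 77 had the highest mean log2 value in both lists (4.14 for platelet and 4.69 for neutrophil progenitor genes). Without that mouse the medians were -0.23 and -0.57.

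Mast cell and basophil genes, for which Gata2 is a known factor, had values on both sides of 0. Of 11 genes, 2 were higher and 4 lower at an unadjusted p under 0.05. The mast cell protease Mcpt4 was at 4.54 ± 1.499 FPKM (DUSP6 KO) and 0.821 ± 0.407 FPKM (WT, log2 fold change 2.40, SE 0.37, limma adjusted p = 0.061), and the basophil protease Prss34 at 2.58 ± 1.24 and 11.9 ± 6.64 FPKM (log2 fold change -2.13, SE 0.39, limma adjusted p = 0.19). Gata2 itself overlapped between the groups.

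Endothelial genes had a median of 0.07 with 3 of 17 higher at an unadjusted p under 0.05, led by Eng (44.8 ± 5.49 against 36.5 ± 2.17 FPKM, limma adjusted p = 0.62), and Plvap was the most abundant at 137 ± 22.1 and 126 ± 17.5 FPKM. Of 14 niche and stress haematopoiesis signals 10 were measured, with a median of 0.23, and the spleen stroma factors Tlx1 (19.2 ± 3.75 against 12.8 ± 2.10 FPKM, limma adjusted p = 0.46) and Tcf21 (27.3 ± 7.77 against 16.8 ± 2.87 FPKM) passed the unadjusted threshold. Vcam1, an adhesion molecule of the niche, was the most abundant at 75.5 ± 14.4 and 80.5 ± 2.58 FPKM. Among the spleen identity genes the marginal zone macrophage receptor Marco had the lowest p (120 ± 27.3 against 71.6 ± 8.85 FPKM, limma adjusted p = 0.34).

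In the lists of lymphoid progenitor (5 of 8 measured, median -0.09) and germinal centre B cell genes (6 measured, median 0.05) no gene passed the unadjusted threshold. Il7r, the most abundant lymphoid progenitor gene, was at 14.1 ± 4.55 and 14.4 ± 1.46 FPKM, and Cd93 had the lowest p of that list at 7.55 ± 0.991 and 8.07 ± 0.409 FPKM. Gcsam led the germinal centre list on both counts, at 3.72 ± 0.920 and 5.22 ± 1.85 FPKM. Rag1 was at 1 to 29 reads and Rag2 at 0 to 5 reads in a library.

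**Figure D5:**
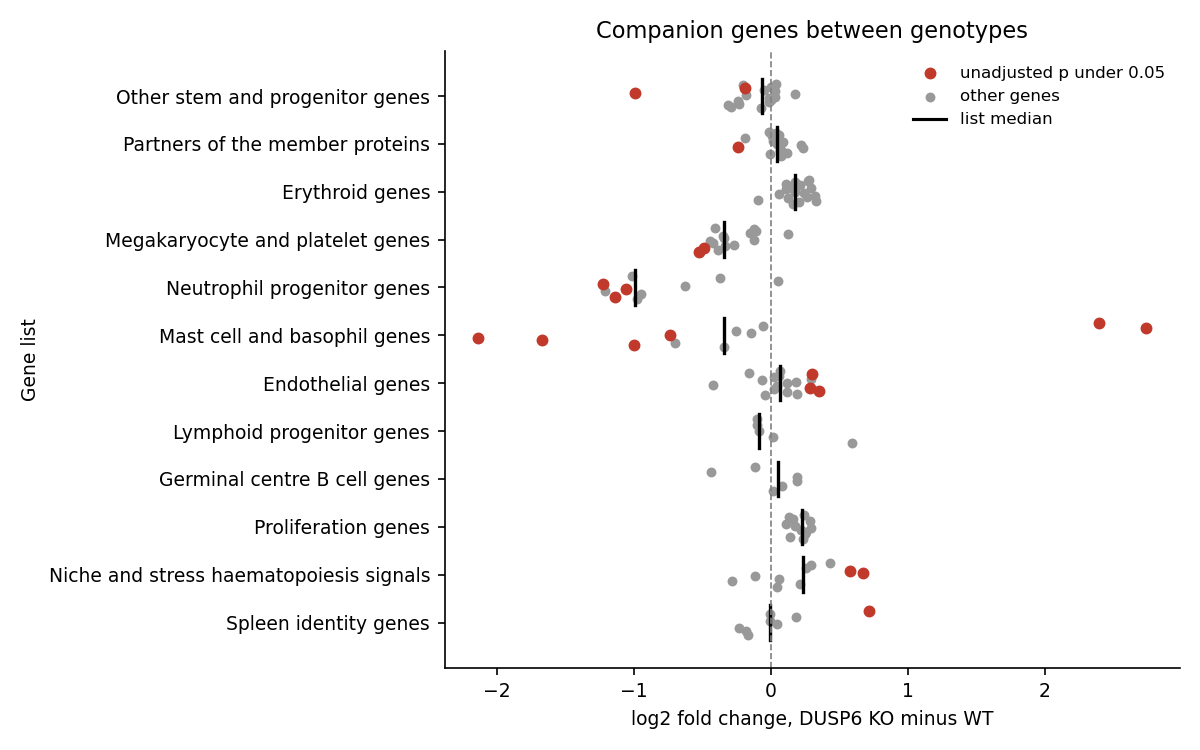
log2 fold change (DUSP6 KO minus WT) of each measured companion gene by list, with a black line at the list median and red points for an unadjusted limma p under 0.05. Erythroid and proliferation genes cluster just above 0 (medians 0.18 and 0.23) with no red point, neutrophil progenitor genes have a median of -0.99, and the red points of mast cell and basophil genes lie on both sides.

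The genes most like each member were sought over the 10 mice among 13415 other genes averaging 1 FPKM or more, by Pearson's r. For Tal1 these were Sox6, a factor of red cell maturation (r = 0.998), and Ank1, the ankyrin of the red cell membrane (0.998). For Gfi1b they were the replication protein gene Wdhd1 (0.996) and Sox6 (0.996). For Lmo2 they were Piga, which starts the synthesis of GPI anchors, and Usp15, a deubiquitinase (both 0.993). Such likeness was common, since 584 genes reached an r of 0.95 with Tal1, 590 with Gfi1b and 423 with Lmo2.

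Myb was most like Mns1 (0.974) and Trmo (0.970), with 12 genes at 0.95 or above. Mecom was most like Dlc1 (0.951) and Mtmr12 (0.9501), and these were its only 2 at that limit. For the remaining genes no gene reached it. The nearest were Tox (0.945) and Cep170b (0.930) for Meis1, Cluap1 (0.938) and Fam167b (0.931) for Runx1, Agpat2 (0.937) and Gm42047 (0.920) for Hlf, and Gstk1 (0.889) and Gm37829 (0.869) for Gata2. For Cd34 they were March7, whose name the table holds as a date (0.932), and Gm22106 (0.922). These names are a description over 10 mice.

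Myb lies on chromosome 10, as Dusp6 does, 78.1 Mb away. The nearest gene to Myb with an adjusted p of 0.05 or less was Il22ra2, which encodes the soluble binding protein of interleukin-22, 1.49 Mb away. It averaged 10.7 FPKM against 2.11 FPKM in WT spleens (log2 fold change 2.33, SE 0.27, limma adjusted p = 0.0090), whereas Myb was at 5.37 ± 1.44 and 5.85 ± 1.84 FPKM.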

How the data were processed

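RNA of 10 spleens (5 DUSP6 KO, 5 WT) was sequenced as paired-end libraries from poly(A) RNA. The authors aligned reads with Hisat2, counted them with featureCounts (1.5.0-p3 in the submitters' processing notes) and deposited FPKM values for 54532 genes. The notes name a human build, but 54409 of the gene IDs are in the mouse GENCODE release M21 (GRCm38) and 98.3% of those have identical coordinates, so positions are on GRCm38. FPKM times gene length gave whole multiples of a step for 100% of values (tolerance 0.001 read), from which reads were recovered. The FPKM denominator was 0.949 to 1.12 times the recovered reads, for a reason not stated.

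Genotypes were compared on log2(FPKM + 0.1) by limma 3.58.1 (R 4.3.3, trended eBayes) for the 21296 genes that averaged 0.1 FPKM or more. P-values were adjusted by Benjamini-Hochberg and called at 0.05, beside two-sided exact permutation tests. Correlations over mice used 100000 permutations. The lines were bought as separate strains, and nothing says whether mice shared a cage or, within a line, a litter. The genes, the gene lists and the tests were chosen with earlier results of these data known. Named were the 10 genes, Dusp6, the most abundant and the lowest-p gene of each list, the 2 genes most like each member and the called gene nearest to Myb. Bmi1, Itga2b, Cebpe, Tcf21, Hoxa9, Hoxb5, Rag1 and Rag2, as well as Gata1, Kit, Ldb1 and Lyl1, were named once their values were known. Alternatives were other pseudocounts (1 and 0.01), filters (1 FPKM and none), eBayes settings, array weights, 4 scalings, limma voom, an erythroid covariate and leaving out each mouse.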

Additional observations from a re-analysis of the deposited data

Results flagged for a closer look

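Each measure was examined for a mouse that stands apart from the 4 others of its group, over 50 groups of 5 (each of the 10 genes, each gene list, the depth and related values in each genotype). By Dixon's criterion 3 stood apart, and chance sets apart about 1 in 20 groups. Hlf was at 0.502 FPKM in WT 67 against 0.578 to 0.603 FPKM in the 4 other WT mice. The mean log2 value of the other stem and progenitor genes was 2.57 in WT 73 against 2.47 to 2.49 in the 4 others. WT 67 had 18422147 reads against 15611652 to 16348136 in the 4 others.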

How the results depend on the processing

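In 13 other settings of the fit and with each mouse left out, none of the 10 genes passed the adjusted or the unadjusted threshold where tested (lowest limma adjusted p 0.628, with the erythroid covariate). At a minimum of 1 FPKM, Meis1, Hlf and Mecom were under the filter and not tested. Signs were not stable. Lmo2 was at -0.062 with the erythroid covariate. Leaving out 1 mouse gave log2 fold changes of -0.19 to 0.61 for Tal1, -0.11 to 0.55 for Gfi1b, -0.18 to 0.20 for Lmo2, -0.28 to 0.055 for Myb and -0.14 to 0.028 for Gata2, and of -0.16 to -0.0074 for Runx1, -0.17 to -0.04 for Cd34, 0.08 to 0.31 for Meis1, 0.20 to 0.41 for Mecom and -0.47 to -0.15 for Hlf, whose signs held, and the signs of Tal1 and Gfi1b turned without DUSP6 KO 73 or WT 67. The median of the 10 genes was -0.11 to 0.09, and Dusp6 stayed at -5.30 to -5.10.

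Companion genes that passed were 0 in the fit reported, 1 higher (Mcpt4) with a pseudocount of 1, array weights, the erythroid covariate or without DUSP6 KO 73, and 1 lower (Prss34) with the covariate. At an unadjusted p under 0.05 they were 13 higher and 20 lower with the covariate, 23 lower with array weights, and 6 to 9 higher and 6 to 22 lower with 1 mouse left out (22 without WT 67, and 6 without DUSP6 KO 01, DUSP6 KO 03 or WT 73). Over all genes 8 were called higher and 7 lower, with 13 higher under array weights, 4 lower at a minimum of 1 FPKM, 14 higher and 16 lower with the covariate, and 6 to 20 higher and 5 to 12 lower with 1 mouse left out (20 and 12 without DUSP6 KO 21). List medians with 1 mouse left out were -0.16 to 0.62 for erythroid, -0.09 to 0.52 for proliferation, -1.31 to -0.57 for neutrophil progenitor, -0.46 to -0.23 for megakaryocyte, -0.54 to -0.28 for mast cell and basophil, 0.15 to 0.30 for niche, -0.24 to 0.36 for germinal centre and -0.0059 to 0.17 for endothelial genes.

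Relations with the erythroid and proliferation lists held in every setting and with any mouse left out. Relations with gene lists numbered 9 to 14 with 1 mouse left out, and pairs of members 5 to 9. The endothelial relations of Tal1, Gfi1b and Lmo2 did not pass without DUSP6 KO 21, WT 67 or WT 77 (r = -0.66 to -0.80), and that of Lmo2 also after rescaling (r = -0.73). Without DUSP6 KO 03 that of Gfi1b (r = -0.81, adjusted permutation p = 0.051) and without WT 73 that of Lmo2 (r = -0.79, adjusted permutation p = 0.055) just missed the threshold, with r as in all 10 mice. The erythroid covariate and the scaling to counted reads were chosen after seeing the data. The 2 groups were separate mice with no stated pairing, so no paired analysis was made. The animal number 73, which occurs in both groups, was not taken as a pair. Depth limits Hlf and Mecom most.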
